A study of Rattus norvegicus with 6 samples.

Results

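The 10 genes described here are parts of the signalling route used by cytokines of the interleukin-6 family: the receptors Il6st, Osmr, Lifr, Il6r and Cntfr, the Janus kinases Jak1 and Jak2, the transcription factor Stat3, and Socs3 and Bcl3. They were taken by gene symbol from the 30560 genes of the count matrices, and all 10 were found. Il6st encodes gp130, the signalling chain that the family's receptors share. It pairs with Osmr to bind oncostatin M, with Lifr to bind leukaemia inhibitory factor, and it is joined by the ligand-binding chains Il6r and Cntfr for interleukin-6 and ciliary neurotrophic factor. Ligand binding activates receptor-bound Jak kinases, which phosphorylate STAT3, and STAT3 dimers then enter the nucleus and switch on genes that include Socs3, whose product blocks the same receptors. In the injured brain this route is best known from astrocytes, where STAT3 takes part in scar formation.

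The data are single nucleus RNA counts from frozen brains of male wild type Wistar rats, 12 weeks old, taken 48 h after a filament permanently closed the middle cerebral artery of the right side (MCAO), or after a Sham operation. Nuclei of the rats in a group were pooled by hemisphere into 6 libraries. The 4 Sham rats gave Sham L and Sham R, the 3 rats whose infarctions were moderate gave mMCAO contra and mMCAO ipsi, and the 4 whose infarctions were severe gave sMCAO contra and sMCAO ipsi. The left hemisphere was contralateral and the right ipsilateral. The Sham, MCAO contra and MCAO ipsi groups therefore held 2 libraries each, the Sham libraries were both hemispheres of the same rats, and the p-values below measure the spread between pooled libraries, not between animals.

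The libraries held 33012945 to 52513380 UMIs (unique molecular identifiers, here 1 count per captured transcript) and 8665 to 14491 nuclei within the quality limits. Nuclei were placed in 7 classes by marker genes. No member gene was used for this. Of the nuclei of a library, 29.8% to 59.6% met no list or several lists and were left unassigned. This share differed between the groups compared, without overlap. The Sham libraries had 54.9% (left) and 59.6% (right). Contralateral shares were 46.7% (mMCAO) and 50.7% (sMCAO), and ipsilateral ones 43.6% (mMCAO) and 29.8% (sMCAO). The part of this in the class comparisons was not tested. Any pair of libraries shared 118 to 281 cell barcodes. Summed over its nuclei, each class carried its own marker list at 13615 to 17790 CPM (oligodendrocytes), 9766 to 12644 (OPCs), 13885 to 17299 (astrocytes), 6941 to 7548 for the endothelial list in vascular cells, 1178 to 1540 for the glutamatergic list and 3203 to 4298 for the GABAergic list. Levels are UMIs of a gene scaled to a class total of 1000000 UMIs (CPM), with the UMI count where it is low. The myeloid class held 4 and 3 nuclei in the Sham libraries, so it was compared only between hemispheres of MCAO rats. It held 162 and 105 nuclei in the contralateral libraries and 763 and 1408 in the ipsilateral ones, which are mMCAO first and sMCAO second here and below unless a library is named.

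Stat3 was higher in the ipsilateral libraries than in the Sham libraries in all 5 of the neural classes, Osmr in OPCs (oligodendrocyte precursor cells) and astrocytes, Jak2 in astrocytes and Socs3 in GABAergic neurons. They are the 9 calls among 39 tests of members in 6 classes, and no member was called lower. The filter on low counts, applied before the test, keeps a gene that passes in a single group. Osmr in OPCs and astrocytes and Socs3 in GABAergic neurons had few or no UMIs outside the ipsilateral libraries. They could enter the tests through those libraries alone, so the filter partly sets their calls and direction. A call means an adjusted p under 0.05 in edgeR's quasi-likelihood test and a log2 fold change of at least 0.6. Over the same classes 2792 of 51013 tests of all genes were calls in either direction (5.47%). Without adjustment, 19 tests of members were higher with a p under 0.05, and 1 was lower. Among all genes, those higher at that p numbered 837 of 9248 in oligodendrocytes, 717 of 6427 in OPCs and 845 of 6348 in astrocytes. They numbered 241 of 2978 in vascular cells, 1182 of 11802 in glutamatergic neurons and 1976 of 14210 in GABAergic neurons.

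Stat3 had the widest reach of the 10 genes, and its product is the transcription factor at the end of the route. The 250 bases before its start are shown with those of Osmr and Socs3, because these 3 genes carry the main differences below. The sequences are RefSeq's, on the rat build GRCr8, in lower case and in the direction of transcription. All 3 genes lie on the minus strand, at chr10:86363360-86363609 for Stat3, chr2:57688562-57688811 for Osmr and chr10:103694769-103695018 for Socs3.
Stat3: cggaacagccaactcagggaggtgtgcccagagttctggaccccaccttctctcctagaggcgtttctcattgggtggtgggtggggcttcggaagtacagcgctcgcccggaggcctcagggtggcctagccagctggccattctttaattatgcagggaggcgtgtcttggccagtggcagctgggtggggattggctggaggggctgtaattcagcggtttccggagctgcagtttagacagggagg
Osmr: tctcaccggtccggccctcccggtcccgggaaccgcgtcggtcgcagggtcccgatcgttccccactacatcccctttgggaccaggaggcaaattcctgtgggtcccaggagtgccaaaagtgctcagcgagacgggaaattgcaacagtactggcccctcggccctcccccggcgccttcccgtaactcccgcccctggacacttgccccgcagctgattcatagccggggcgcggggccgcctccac
Socs3: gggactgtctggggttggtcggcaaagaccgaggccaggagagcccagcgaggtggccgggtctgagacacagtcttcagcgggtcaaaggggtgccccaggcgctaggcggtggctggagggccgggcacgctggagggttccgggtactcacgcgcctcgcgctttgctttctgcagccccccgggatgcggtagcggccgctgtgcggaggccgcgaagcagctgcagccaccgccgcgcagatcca
STAT proteins are known to bind the palindrome TTCNNNGAA, which reads the same on both strands. It was present in none of the windows of the 8 members in the RefSeq table (300 bases, from 250 before to 50 after the annotated start). It was present in 2970 of 33469 windows of that length (8.87%). This says only that these letters are not in these windows, so no base is capitalised. Whether a window holds the promoter used in these cells was not tested, and a STAT site outside it is not excluded. Cntfr and Jak1 had no window there.

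In oligodendrocytes, the myelin-forming cells, Stat3 stood at 35.3 CPM in Sham L and 43.9 in Sham R. The contralateral libraries gave 44.7 and 52.0 CPM, and the ipsilateral libraries 136 and 332 CPM. Both ipsilateral values lay above all 4 others, with 125 and 595 UMIs behind them. The change from Sham was 2.63 on the log2 scale (SE 0.45, adjusted p = 0.0409 in edgeR), where 0.660% of all genes tested were called higher. This call was lost when any 1 of the Sham or contralateral libraries was left out (adjusted p 0.0929 to 0.336 in edgeR) and was kept without either ipsilateral library. It was also lost in a fit of only the 4 libraries compared, so in 5 of 14 alternatives. Without sMCAO ipsi the log2 change was 1.83, and without mMCAO ipsi 3.14. Against the contralateral hemisphere the change was 2.29 with an adjusted p of 0.109 in edgeR, and with the rat pool as a block it was 2.12 with an adjusted p of 0.0138.

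The share of oligodendrocytes with a Stat3 UMI was compared after every nucleus was thinned to 1000 UMIs, with shallower nuclei left out. It was 2.58% of 155 nuclei in Sham L (exact 95% binomial interval 0.708 to 6.47) and 2.44% of 41 in Sham R (0.0617 to 12.9). It was 3.64% of 385 and 6.57% of 213 nuclei in the contralateral libraries, against 13.6% of 184 (8.99 to 19.4) and 27.5% of 856 (24.5 to 30.6) in the ipsilateral ones. At equal depth both ipsilateral shares were thus the highest, as in the CPM, while the Sham shares rest on 4 nuclei and 1 nucleus with Stat3 and give no order between them. The intervals cover counting error only. Before thinning the shares were 2.69%, 2.96%, 3.72%, 9.01%, 4.00% and 27.9% in Sham L, Sham R, mMCAO contra, mMCAO ipsi, sMCAO contra and sMCAO ipsi, with median depths of 667, 626.5, 753, 697, 703 and 1116.5 UMIs per oligodendrocyte.

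In OPCs, the dividing precursors of the lineage, Stat3 gave 25.3 CPM (3 UMIs) in Sham L and 0 UMIs in Sham R. It gave 49.1 and 37.1 CPM contralaterally and 139 and 153 CPM ipsilaterally. The ipsilateral values were again the highest, and here both infarct sizes gave like levels (ratio of sMCAO ipsi to mMCAO ipsi 1.10, counting interval 0.811 to 1.50). The log2 change was 3.21 against Sham (SE 0.57, adjusted p = 0.000821 in edgeR) and 1.63 against the contralateral hemisphere (adjusted p = 0.000738). Both calls held in each of the 14 and 15 alternatives run. In OPCs 4.43% of all genes were called higher against Sham and 6.15% against the contralateral hemisphere. Because Sham held 3 UMIs in all, the size of the first change is loose: it was 2.43 on the log2 scale without Sham R, and it has no fixed size without Sham L, which leaves only the library at 0.

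Astrocytes, which answer injury with hypertrophy and scar formation, started from a higher Stat3 level of 81.6 CPM (12 UMIs) and 149 CPM (13 UMIs) in the Sham libraries. Contralateral astrocytes gave 183 and 190 CPM and ipsilateral ones 224 and 254 CPM. The 3 groups did not overlap, with the contralateral group between the others. The log2 change from Sham was 1.08 (SE 0.29, adjusted p = 0.0309 in edgeR; 5.92% of all genes called higher). It was 0.66 without Sham L and 1.48 without Sham R, and the call was lost in both cases (adjusted p 0.386 and 0.0574 in edgeR). The call was also lost in DESeq2 and in a fit of only the 4 libraries compared, so in 4 of 14 alternatives. The change against the contralateral hemisphere was not a call.

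In neurons, whose median Stat3 level over libraries was the lowest although their range overlapped that of OPCs, the levels were as follows. Glutamatergic neurons gave 31.7 and 26.8 CPM in Sham, 28.4 and 43.8 contralaterally and 48.7 and 74.4 ipsilaterally. GABAergic neurons gave 24.9 and 25.7, then 27.1 and 30.7, then 51.6 and 59.8 CPM in the same order. The ipsilateral libraries were above all others in both classes. Against Sham, the log2 change was 0.97 in glutamatergic neurons (SE 0.24, adjusted p = 0.0458 in edgeR) and 1.03 in GABAergic neurons (SE 0.10, adjusted p = 0.00108), where 1.42% and 3.99% of all genes were called higher. The glutamatergic call was lost without either Sham or either contralateral library and in a fit of only the 4 libraries compared. Under the stricter gate and without nuclei that held myeloid UMIs it was lost too, so in 7 of 14 alternatives. The GABAergic call held in all 14. Against the contralateral hemisphere GABAergic neurons gave 0.95 (adjusted p = 0.00299 in edgeR, 0.0588 without mMCAO contra), and glutamatergic neurons gave no call without the block (0.82, adjusted p = 0.0769) and 1 with it (0.80, adjusted p = 0.00286).

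RNA of other cells moved with the groups. Gfap, an astrocyte filament gene that stood at 258 to 3734 CPM in astrocytes, had 0 UMIs in the glutamatergic neurons of both Sham libraries, 1.08 and 2.81 CPM contralaterally and 7.25 and 14.0 CPM ipsilaterally. In GABAergic neurons it gave 0.493 and 0.862 CPM in Sham, 1.91 and 2.50 contralaterally and 8.12 and 12.5 ipsilaterally. The summed list of 19 myeloid markers in GABAergic neurons, with at most 1 marker at 0, was 45.3 and 57.8 CPM, then 44.4 and 64.9, then 120 and 104. Both thus stood highest in the ipsilateral libraries, as Stat3 did. In oligodendrocytes Gfap rose by 4.15 on the log2 scale from Sham to the ipsilateral libraries (adjusted p = 0.0409 in edgeR). The summed astrocyte list there ran from 278 to 455 CPM over the libraries. The myeloid list in oligodendrocytes gave 144 and 128 CPM, then 89.3 and 160, then 219 and 145, with 1 to 9 markers at 0. For that list sMCAO ipsi, with the most Stat3, stood at the level of Sham L. The pan-neuronal list of 6 genes in oligodendrocytes was 5444 and 4978 CPM in Sham, 3690 and 3823 contralaterally and 2910 and 1417 ipsilaterally, lowest in the library where Stat3 was highest. The part of such RNA in the Stat3 differences was not tested.

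Among myeloid cells, Stat3 gave 156 and 246 CPM contralaterally and 175 and 254 ipsilaterally, so the groups overlapped. Vascular cells gave 236 and 182 CPM in Sham, 148 and 186 contralaterally and 245 and 350 ipsilaterally, where mMCAO ipsi was close to Sham L. No member was called in either class: edgeR called 0 of 6 members in myeloid cells between hemispheres, as did DESeq2, with 1 lower before adjustment (p under 0.05), and 0% of all genes there were called. In vascular cells it called 0 of 5 against Sham, as did DESeq2, with 2 higher and 1 lower before adjustment (p under 0.05), where 0.0336% of all genes were called higher. Of all genes before adjustment, 280 of 7845 were lower in myeloid cells. In vascular cells 241 of 2978 were higher and 266 lower.

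**Figure D1:**
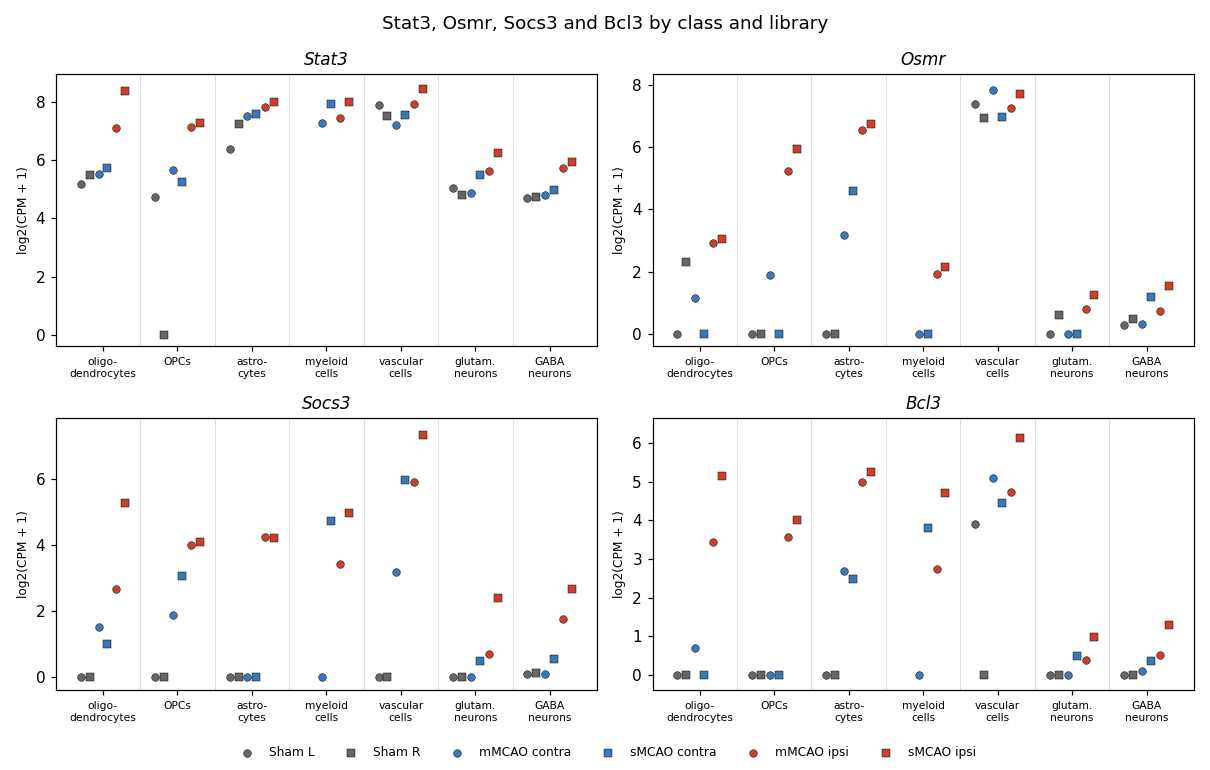
Levels of Stat3, Osmr, Socs3 and Bcl3 by cell class, on a log2(CPM + 1) axis. Each point is 1 pooled library (grey Sham, blue contralateral, red ipsilateral, with no error bars), and the few Sham myeloid nuclei are left out. Stat3 of oligodendrocytes reached 332 CPM in sMCAO ipsi, and Osmr of astrocytes went from 0 UMIs in both Sham libraries to 94.0 and 107 CPM in the ipsilateral ones.

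Osmr encodes the oncostatin M receptor chain. Astrocytes held 0 Osmr UMIs in both Sham libraries, 8.09 CPM (3 UMIs) and 23.1 CPM (5 UMIs) contralaterally, and 94.0 CPM (52 UMIs) and 107 CPM (127 UMIs) ipsilaterally. The ipsilateral level was at least 7.84-fold higher than Sham, taking 3 counts over both Sham libraries as the limit that a count of 0 allows. This bound and the later ones of its kind leave out the counting error of the ipsilateral UMIs, so the least fold can be smaller. edgeR called the change from Sham (adjusted p = 0.00364) and that from the contralateral hemisphere, which was 2.83 on the log2 scale (adjusted p = 0.00399; 5.06% of all genes called higher). The first call was lost without Sham L (adjusted p = 0.0954 in edgeR) and the other without mMCAO contra (adjusted p = 0.12).

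OPCs showed the same order for Osmr at lower levels. They held 0 UMIs in Sham L, Sham R and sMCAO contra, 2.73 CPM (1 UMI) in mMCAO contra, and 37.0 CPM (17 UMIs) and 60.3 CPM (56 UMIs) in the ipsilateral libraries. The ipsilateral level was at least 3.25-fold higher than Sham (adjusted p = 0.0131 in edgeR), and 4.67 on the log2 scale above the contralateral hemisphere (adjusted p = 0.000517). The call against Sham was lost without either Sham library and under the stricter gate, and the other was missed by DESeq2 (adjusted p = 0.0594).

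Osmr was thus detected in a minority of nuclei of these classes. After thinning to 1000 UMIs it was found in 8.09% of 272 astrocytes of mMCAO ipsi (5.14 to 12.0) and 7.25% of 414 of sMCAO ipsi (4.94 to 10.2), and in 4.15% of 193 and 4.81% of 395 OPCs. Before thinning the astrocyte shares were 10.8% and 21.7%, at median depths of 1176.5 and 2269 UMIs, so the difference between infarct sizes in the unthinned shares was not seen at equal depth. The background share, in glutamatergic neurons, was 0.159% and 0.173% in those libraries, at median depths of 4856 and 8409 UMIs before thinning. Only 19 and 8 astrocytes of the Sham libraries reached 1000 UMIs, and their 0 nuclei with Osmr allow shares of up to 17.6% and 36.9% (upper bounds of the exact interval), so the Sham shares do not separate from these values.

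Vascular cells had the highest Osmr level in every library but did not follow the operation: 167 and 121 CPM in Sham, 230 and 124 contralaterally and 152 and 210 ipsilaterally, with overlapping groups. Oligodendrocytes held at most 7.26 CPM (13 UMIs), glutamatergic neurons at most 1.38 CPM and ipsilateral myeloid cells 2.82 and 3.43 CPM.

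Il6st, the shared chain, was measured in every class outside the few myeloid nuclei of Sham. In vascular cells it gave 153 CPM (11 UMIs) in Sham L and 30.3 CPM (1 UMI) in Sham R, 107 and 207 CPM contralaterally, and 219 CPM (26 UMIs) and 772 CPM (412 UMIs) ipsilaterally. The value of sMCAO ipsi stood far above the other 5. The change from Sham was 2.26 on the log2 scale and not a call (adjusted p = 0.136 in edgeR). It rested on sMCAO ipsi: the log2 change was 0.99 without that library, and 2.82 with an adjusted p of 1.3e-12 without mMCAO ipsi, when 1 ipsilateral library remained and was assumed to vary like the other groups. It was also called without nuclei that held myeloid UMIs (2.58, adjusted p = 0.0409 in edgeR).

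The makeup of the vascular class differed in that library. Of its 309 vascular nuclei, 215 were led by endothelial markers, with 941 CPM of Il6st, and 63 by mural or fibroblast markers, with 391 CPM. In mMCAO ipsi the 41 endothelial-led nuclei gave 258 CPM. The level of sMCAO ipsi therefore also stood above that of mMCAO ipsi among the endothelial-led nuclei alone. After thinning, 46.8% of 190 vascular nuclei of sMCAO ipsi held an Il6st UMI, against 12.8% of 47 in mMCAO ipsi. The summed pan-neuronal list in vascular cells was 412 CPM in sMCAO ipsi and 1502 to 3873 CPM in the other libraries, and the part of this in the Il6st level was not tested.

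Oligodendrocytes gave 38.1 and 27.9 CPM of Il6st in Sham, 42.2 and 44.8 contralaterally, and 49.1 and 84.3 ipsilaterally. The groups did not overlap, but the log2 change from Sham of 0.96 was not a call (adjusted p = 0.16 in edgeR), and it was 0.45 without sMCAO ipsi. Astrocytes ranged from 11.5 CPM (1 UMI) in Sham R to 77.5 in sMCAO ipsi, with Sham L at 74.8, so that groups overlapped. Myeloid cells went the other way, with 287 and 336 CPM contralaterally and 178 and 109 ipsilaterally. That difference was not a call without the block (adjusted p = 0.641 in edgeR) and was one with it, at -1.17 on the log2 scale (adjusted p = 0.0295). Within the ipsilateral myeloid cells the summed macrophage list was at 577 and 1189 CPM, against 287 and 556 contralaterally, and the microglia list at 1307 and 828 against 1573 and 1216. The part of this shift in makeup in the Il6st levels was not tested. Neurons changed little, with 15.2 to 21.1 CPM in glutamatergic and 25.8 to 35.8 CPM in GABAergic neurons.

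Lifr, the leukaemia inhibitory factor receptor, gave 13.6 CPM (10 UMIs) and 3.99 CPM (1 UMI) in Sham oligodendrocytes, 17.4 and 23.4 contralaterally and 31.6 and 57.5 ipsilaterally. These groups did not overlap. The log2 change from Sham of 2.06 was not a call (adjusted p = 0.0717 in edgeR), and it ran from 1.48 without sMCAO ipsi to 3.51 without Sham L. In astrocytes the Sham libraries gave 81.6 and 45.9 CPM and the ipsilateral ones 47.0 and 48.0, with no such order. The difference between the changes of the 2 classes was itself a call, at 2.79 on the log2 scale (SE 0.66, adjusted p = 0.0146 in edgeR), where 3.21% of all genes were called in either direction. It was lost in 4 of 8 alternatives: without Sham L, without Sham R, without sMCAO ipsi and under the stricter gate. In vascular cells Lifr ran from 28.1 CPM in sMCAO ipsi to 180 CPM in Sham L with overlapping groups, and in glutamatergic neurons the change was 0.88 (adjusted p = 0.0826 in edgeR).

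The 2 ligand-binding chains were each highest in 1 class. Il6r, which binds interleukin-6, was highest in myeloid cells, with 500 and 414 CPM contralaterally and 350 and 397 ipsilaterally. These values lay above those of every other class (vascular cells came next, at 32.8 to 111 CPM) and both contralateral values stood above both ipsilateral ones, a difference that was not a call. Cntfr, the receptor chain for ciliary neurotrophic factor, was highest in astrocytes, at 18.5 to 54.4 CPM on 3 to 32 UMIs. Vascular cells held 0 Cntfr UMIs in all 6 libraries. No test of Il6r or Cntfr was a call in the main fit. In GABAergic neurons each became a call, lower ipsilaterally, in 1 alternative: Il6r against Sham and Cntfr against the contralateral hemisphere.

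**Figure D2:**
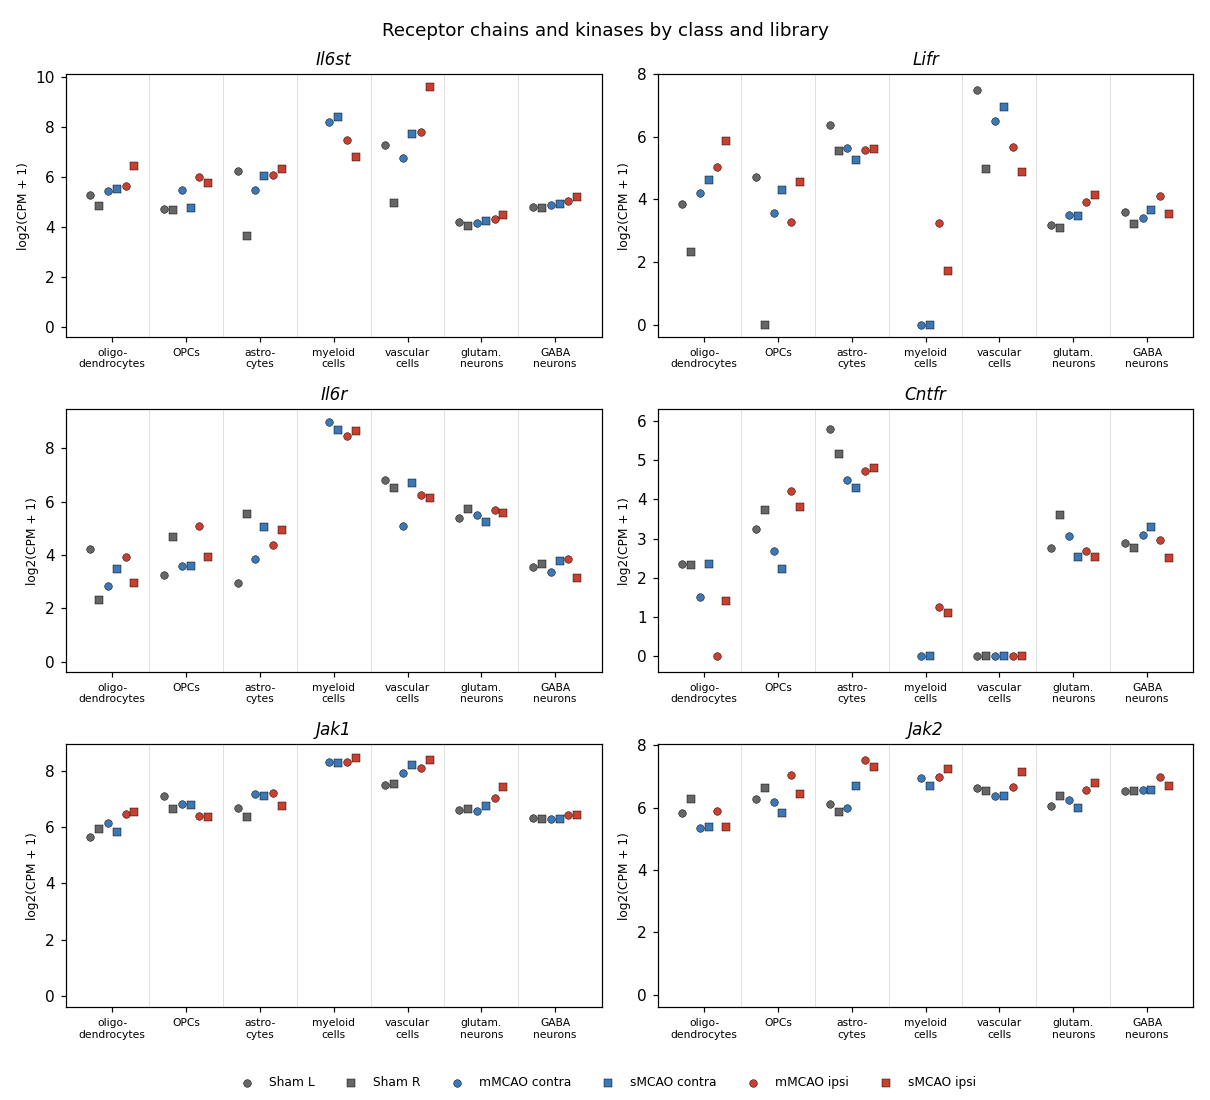
Levels of Il6st, Lifr, Il6r, Cntfr, Jak1 and Jak2 by cell class, on a log2(CPM + 1) axis. Each point is 1 pooled library (grey Sham, blue contralateral, red ipsilateral, with no error bars), and the few Sham myeloid nuclei are left out. Il6r was highest in myeloid cells at 350 to 500 CPM, and Il6st reached 772 CPM in the vascular cells of sMCAO ipsi.

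Of the kinases, Jak2 was called in astrocytes and Jak1 in glutamatergic neurons. Astrocytes held 68.0 CPM (10 UMIs) and 57.4 CPM (5 UMIs) of Jak2 in Sham, 62.0 and 102 contralaterally and 184 and 157 ipsilaterally. The ipsilateral libraries were the highest, while sMCAO contra stood above both Sham libraries. The log2 change was 1.34 against Sham (SE 0.35, adjusted p = 0.0296 in edgeR) and 1.09 against the contralateral hemisphere (adjusted p = 0.0279). It was lost in 5 of 14 alternatives for Sham, among them each Sham library left out (adjusted p 0.233 and 0.163 in edgeR), and in 6 of 15 for the contralateral hemisphere.

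Oligodendrocytes showed no such order for Jak2, with 55.7 and 75.8 CPM in Sham, 39.7 and 40.8 contralaterally and 57.8 and 40.8 ipsilaterally. The changes of the 2 classes differed by -1.70 on the log2 scale, oligodendrocytes minus astrocytes (SE 0.45, adjusted p = 0.0286 in edgeR). That call was lost without Sham L, Sham R or sMCAO ipsi (adjusted p 0.181, 0.271 and 0.0695 in edgeR).

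Jak1 in glutamatergic neurons gave 96.6 and 99.2 CPM in Sham, 93.8 and 107 contralaterally and 130 and 169 ipsilaterally. The ipsilateral libraries lay above the rest. Against the contralateral hemisphere the log2 change was 0.60 (adjusted p = 0.031 in edgeR; 0.924% of all genes called higher), at the edge of the fold limit, and the call was lost in 11 of 15 alternatives, the block among them (0.59, adjusted p = 0.00332). Against Sham it was 0.53 (adjusted p = 0.0442), under the fold limit. Jak2 in glutamatergic neurons gave 0.58 against the contralateral hemisphere (adjusted p = 0.0397 in edgeR), also under that limit, and 0.38 against Sham (adjusted p = 0.139). GABAergic neurons gave 0.29 and 0.21 for Jak2 in the same order (adjusted p 0.165 and 0.240 in edgeR). In oligodendrocytes Jak1 gave 48.9 and 59.8, then 68.9 and 55.0, then 87.3 and 91.0 CPM, and in OPCs 135 and 97.4, then 112 and 107, then 82.7 and 80.7 CPM. Neither class gave a call, and the difference between their changes of 1.33 was not one either (adjusted p = 0.123 in edgeR).

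Socs3, the feedback inhibitor, and Bcl3, an atypical IkB protein that acts with NF-kB in the nucleus and that STAT3 is known to induce, were nearly absent from Sham libraries. In oligodendrocytes Socs3 had 0 UMIs in both Sham libraries, 3 and 1 UMIs contralaterally, and 5.45 CPM (5 UMIs) and 38.0 CPM (68 UMIs) ipsilaterally, at least 7.14-fold above Sham. Bcl3 had 0 UMIs in Sham, 1 and 0 contralaterally, and 9.82 CPM (9 UMIs) and 34.1 CPM (61 UMIs) ipsilaterally, at least 7.22-fold above Sham. Both genes fell below the filter on low counts in this class. Without the filter edgeR called both against Sham (adjusted p 2.65e-07 for Socs3 and 4.29e-07 for Bcl3). The share of all genes called in the fits without the filter is not given here, so calls from them stand without a background.

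In vascular cells Socs3 had 0 UMIs in Sham, 8.21 CPM (1 UMI) and 62.0 CPM (3 UMIs) contralaterally, and 59.1 CPM (7 UMIs) and 163 CPM (87 UMIs) ipsilaterally. The contralateral and ipsilateral libraries overlapped, and the ipsilateral level was at least 3.89-fold above Sham. In astrocytes Socs3 was seen only in the ipsilateral libraries, at 18.1 CPM (10 UMIs) and 17.7 CPM (21 UMIs), at least 1.40-fold above Sham. OPCs held 0 Socs3 UMIs in Sham, 1 and 2 UMIs contralaterally, and 15.2 CPM (7 UMIs) and 16.1 CPM (15 UMIs) ipsilaterally. The mean ipsilateral level was only 1.05 times the limit that the Sham depth allows, so a level above Sham was not shown. Bcl3 in astrocytes gave 0 UMIs in Sham, 2 and 1 UMIs contralaterally, and 30.7 CPM (17 UMIs) and 37.1 CPM (44 UMIs) ipsilaterally, at least 2.65-fold above Sham. In OPCs its 5 and 14 ipsilateral UMIs stood at the limit that the Sham depth allows, so no fold is given.

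The fit without the filter gave further calls against Sham for vascular Socs3 (adjusted p = 0.00168 in edgeR), glutamatergic Socs3 (adjusted p = 0.0241), astrocyte Bcl3 (adjusted p = 0.00511) and GABAergic Bcl3 (adjusted p = 0.00108). It gave none for Socs3 of astrocytes (adjusted p = 0.11 in edgeR) or OPCs (adjusted p = 0.266), nor for Bcl3 of OPCs (adjusted p = 0.379), vascular cells (adjusted p = 0.489) or glutamatergic neurons (adjusted p = 0.603). Against the contralateral hemisphere it called Socs3 and Bcl3 in oligodendrocytes and astrocytes, Socs3 in glutamatergic neurons and Bcl3 in OPCs (adjusted p 5.65e-11 to 0.0329 in edgeR), and not Socs3 of vascular cells (adjusted p = 0.108) or OPCs (adjusted p = 0.418).

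GABAergic neurons, the class with the most nuclei in all 6 libraries, gave the only Socs3 calls in the fit with the filter on low counts. Socs3 had 1 UMI in each Sham library and in mMCAO contra, 5 UMIs (0.481 CPM) in sMCAO contra, and 2.38 CPM (22 UMIs) and 5.35 CPM (48 UMIs) ipsilaterally. The ratio of the ipsilateral libraries to Sham was 47.4 (counting interval 12.6 to 399). edgeR gave adjusted p = 0.00417 against Sham, and a log2 change of 3.97 against the contralateral hemisphere (adjusted p = 0.0119; 1.45% of all genes called higher). The first call was lost without Sham L (adjusted p = 0.0942 in edgeR), and the other without either contralateral library. In glutamatergic neurons Socs3 had 0 UMIs in Sham and mMCAO contra, 1 in sMCAO contra, and 6 and 22 UMIs ipsilaterally. In myeloid cells it gave 0 and 25.9 CPM (2 UMIs) contralaterally and 9.88 and 30.9 CPM ipsilaterally, with overlapping groups.

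**Figure D3:**
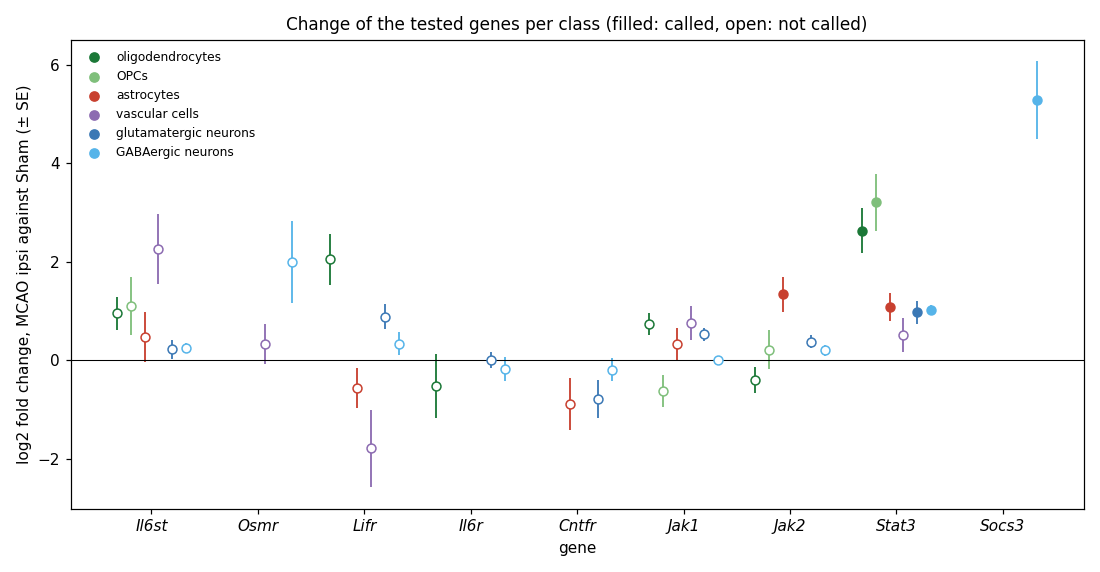
Log2 fold changes of the members tested, ipsilateral libraries against Sham, by cell class, with bars for standard errors derived from edgeR's fold change and F statistic. Filled points are calls, and Osmr of OPCs and astrocytes is left out because Sham held 0 UMIs. Stat3 is a call in 5 classes, from 0.97 in glutamatergic neurons to 3.21 in OPCs.

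Between the hemispheres of MCAO rats, 7 of 45 tests of members in 7 classes were calls, all higher ipsilaterally, and 1859 of 58858 tests of all genes (3.16%). The calls were Stat3 and Osmr in OPCs, Osmr and Jak2 in astrocytes, Jak1 in glutamatergic neurons, and Stat3 and Socs3 in GABAergic neurons. Those of Osmr and Socs3 share the limit of the filter on low counts given above. In oligodendrocytes edgeR called 0 of 6 members and 0% of all genes, 3 members were higher before adjustment (p under 0.05), and DESeq2 called 1, Stat3 (adjusted p = 0.000473). Vascular cells gave 0 calls among 5 members in edgeR and DESeq2, with 2 higher before adjustment (p under 0.05). Of all genes before adjustment, 609 of 9248 were higher in oligodendrocytes and 154 of 2978 in vascular cells. The comparisons with Sham and with the contralateral hemisphere share the ipsilateral libraries, so they are not independent.

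The contralateral hemisphere of MCAO rats was compared with Sham in the same way. edgeR called 0 of 39 tests of members and DESeq2 0, with 3 higher and 1 lower before adjustment (p under 0.05), and 19 of 51013 tests of all genes (0.0372%) were calls. The 3 higher members were in OPCs and astrocytes, where 260 of 6427 and 235 of 6348 genes were higher before adjustment. The lower one was in oligodendrocytes, where 416 of 9248 genes were lower. Astrocyte Stat3, where both contralateral libraries (183 and 190 CPM) lay above both Sham libraries (81.6 and 149 CPM), was not a call.

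Whether the Stat3 change differed between classes was tested as an interaction. Oligodendrocytes minus astrocytes gave 1.46 on the log2 scale (adjusted p = 0.111 in edgeR), OPCs minus astrocytes 2.12 (adjusted p = 0.197), oligodendrocytes minus OPCs -0.66 (adjusted p = 0.86) and astrocytes minus glutamatergic neurons 0.12 (adjusted p = 0.944). In these tests 3.21%, 2.29%, 1.91% and 4.87% of all genes were called in either direction. None of the Stat3 values was a call, so a difference in the size of the Stat3 change between these classes was not shown. Without mMCAO ipsi the first reached an adjusted p of 0.000961 in edgeR. The interactions of Osmr, Socs3 and Bcl3, which stood at 0 UMIs in Sham in most of these classes, could not be fitted with a usable size.

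Severe and moderate infarctions were represented by 1 ipsilateral library each, so their ratios have counting intervals but no replicate check and no test. Of 65 pairs of member and class with at least 10 UMIs, the interval of the ratio sMCAO ipsi over mMCAO ipsi lay above 1 in 18, below 1 in 7 and held 1 in 40. For sMCAO contra over mMCAO contra these counts were 3, 0 and 40 of 43 pairs, and for Sham R over Sham L 0, 1 and 34 of 35. All genes were not counted by this rule, so none of these counts can be read as particular to the members. In oligodendrocytes the ratio was 2.44 for Stat3 (2.01 to 2.98), 6.96 for Socs3 (2.84 to 22.1), 3.47 for Bcl3 (1.71 to 7.95), 1.72 for Il6st (1.22 to 2.45) and 1.82 for Lifr (1.19 to 2.85). These are the 5 members whose intervals lay above 1 in that class. The intervals of the others held 1, with ratios of 1.11 for Osmr (0.393 to 3.56), 1.04 for Jak1 (0.793 to 1.38), 0.705 for Jak2 (0.488 to 1.02) and 0.473 for Il6r (0.197 to 1.12), and Cntfr had too few UMIs for a ratio. Vascular Il6st gave 3.52 (2.37 to 5.45), and myeloid Il6st went the other way at 0.610 (0.485 to 0.771). Intervals above 1 were not particular to oligodendrocytes. Stat3 gave 1.45 in myeloid cells, 1.53 in glutamatergic and 1.16 in GABAergic neurons. Socs3 gave 2.25 to 6.99 in myeloid cells, vascular cells and both neuron classes, and Bcl3 4.45 in myeloid cells and 3.35 in GABAergic neurons. Osmr of GABAergic neurons and both kinases of glutamatergic neurons also lay above 1. In glutamatergic neurons Stat3 gave 1.54 contralaterally too. Osmr and Stat3 of OPCs and astrocytes, by contrast, gave ratios whose intervals held 1, from 1.10 for Stat3 of OPCs to 1.63 (0.932 to 2.99) for Osmr of OPCs. Il6r and Jak2 of OPCs and Jak1 of astrocytes had intervals below 1, as did Lifr, Il6r and Jak2 of GABAergic neurons.

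**Figure D4:**
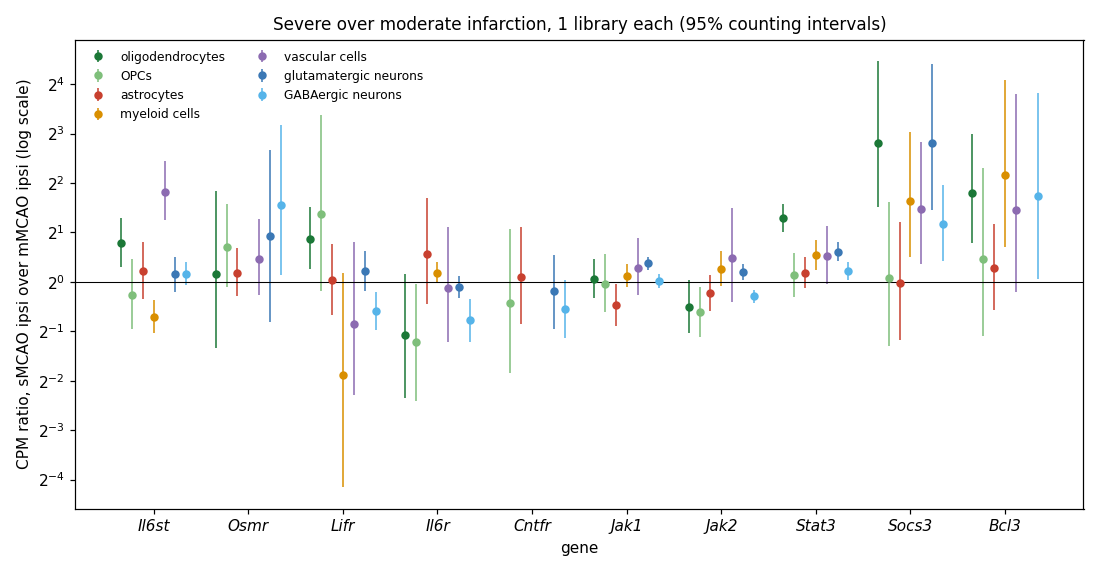
Ratio of CPM in sMCAO ipsi to CPM in mMCAO ipsi for each member and class with at least 10 UMIs, on a log axis, with bars for 95% counting intervals. A ratio of 1 means equal levels, and Stat3 of oligodendrocytes lies at 2.44. There is 1 library on each side, and the intervals leave out the spread between animals.

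Within the oligodendrocytes of sMCAO ipsi, members were also counted in the same nuclei, in a separate thinning to 1000 UMIs that left 856 nuclei, 233 of them with Stat3. Stat3 was found in 46.9% of the 32 nuclei with Socs3 and in 26.5% of those without it. For Bcl3 the shares were 45.5% of 33 nuclei and 26.5%, and for Il6st 40.5% of 74 nuclei and 26.0%. Lifr (36.4% of 44 nuclei against 26.7%) and Jak1 (35.4% of 65 against 26.5%) lay on the same side, and so did Osmr (62.5% of only 8 against 26.9%). Jak2 (21.4% of 28 nuclei against 27.4%) and Il6r (12.5% of only 8 against 27.4%) lay on the other side, and Cntfr was found in no nucleus. Other classes of that library differed in part. Il6st gave 11.1% of 18 nuclei against 14.9% in OPCs and 21.2% of 33 against 20.2% in astrocytes. Jak2 gave 21.6% of 37 against 14.0% in OPCs and 27.0% of 63 against 19.1% in astrocytes. Socs3, Bcl3, Lifr, Jak1 and Osmr kept the side seen in oligodendrocytes in both classes, Socs3 on 3 OPCs and 6 astrocytes. All these nuclei come from 1 library. In mMCAO ipsi, with 184 oligodendrocytes, Il6st (30.0% of 10 nuclei against 12.6%), Jak1 (27.8% of 18 against 12.0%), Socs3, Bcl3 and Il6r kept these sides. Jak2 (26.7% of 15 against 12.4%), Lifr (0% of 5 against 14.0%) and Osmr (1 nucleus) did not. Lifr and Jak1 in OPCs and astrocytes of mMCAO ipsi, and Bcl3 in its OPCs, also lay opposite to the oligodendrocytes of sMCAO ipsi. Other genes were not counted, so the shares are a description.

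Genes around the 10 were read from 4 lists of known parts of the route. The 9 ligands gave no call in any class and were mostly too low to test: none was tested in oligodendrocytes, OPCs or myeloid cells, and 4 in GABAergic neurons. Oncostatin M (Osm) had 12 UMIs (6.86 CPM) in the myeloid cells of sMCAO ipsi, and leukaemia inhibitory factor (Lif) 13 UMIs in the astrocytes of that library, both picked out after their values were seen. Among the 10 other receptors, kinases and STAT genes, the ipsilateral comparison with Sham called 1, Stat4 in glutamatergic neurons (0.79, adjusted p = 0.0498 in edgeR). It was 1 of 6 tested there, where 1.42% of all genes were called higher, and each other class gave 0 of 3 to 7 tested. Among 15 inhibitors the same comparison called Socs4, a relative of Socs3, in GABAergic neurons (0.66, adjusted p = 0.0215 in edgeR). It was 1 of 13 tested there, where 3.99% of all genes were called higher, and each other class gave 0 of 3 to 12. A single call per list is not read as particular to that list.

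Of 22 textbook STAT3 targets, 8 could be tested in astrocytes. Of these, 4 rose from Sham to the ipsilateral libraries: Cd44, a hyaluronan receptor, by 5.75 on the log2 scale, Gfap by 3.38, the transcription factor Cebpd by 3.63 and the protease inhibitor Timp1 by 7.66, while Vegfa, an angiogenic factor, fell by 1.53 (adjusted p 0.000648 to 0.0238 in edgeR). Of all genes tested in astrocytes, 5.92% were called higher. The filter on low counts keeps a gene that passes in a single group, so targets near 0 in Sham could enter through the ipsilateral libraries alone. The counts of targets in the other classes share this limit. In OPCs 2 of 5 rose, Cd44 by 8.66 and the cyclin gene Ccnd1 by 2.01, where 4.43% of all genes were called higher. In oligodendrocytes 1 of 6 rose, Gfap by 4.15 (adjusted p = 0.0409 in edgeR), an astrocyte gene, where 0.660% of all genes were called higher. In GABAergic neurons 6 of 17 rose (3.99% of all genes) and in glutamatergic neurons 1 of 10 (1.42% of all genes), Gfap in both among them, with the levels given above. Against the contralateral hemisphere the targets called higher were 4 of 8 in astrocytes, with Vegfa again lower (5.06% of all genes called higher), 3 of 5 in OPCs (6.15%), 1 of 10 in glutamatergic neurons (0.924%) and 4 of 17 in GABAergic neurons (1.45%). In oligodendrocytes 0 of 6 and in myeloid cells 0 of 10 were called, in classes where 0% of all genes were, so these counts say nothing particular to the targets. Fitted changes of genes at or near 0 UMIs in Sham depend on the prior count.

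The order of the classes was read for each gene from the median over libraries. Il6st fell from myeloid to vascular cells, astrocytes, oligodendrocytes, OPCs, GABAergic and glutamatergic neurons, and of these neighbours only the 2 neuron classes had ranges that did not overlap. For Stat3 the order was vascular cells, myeloid cells, astrocytes, oligodendrocytes, OPCs, glutamatergic and GABAergic neurons, and every pair of neighbours overlapped. Osmr was highest in vascular cells, with a range that did not overlap that of astrocytes.

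Over the 42 sums of class and library, the genes whose levels ran most like Il6st, Stat3, Osmr and Socs3 were found among 12443 genes. Pearson's r of log levels was used, as a description, since the sums share libraries and depth. Lifr, Il6r, Cntfr, Jak1 and Jak2 were not compared. Those most like Osmr were Adamts9 (r = 0.935), Adamts1 (0.926) and Ehd2 (0.923), and Adamts9 and Adamts1 were still among the first 3 without the sums of the few Sham myeloid nuclei. For Stat3 they were Nfat5 (0.835), Ppp1r12a and Gnaq, and for Il6st Pfdn5 (0.880) and Nck1 (0.874) besides 1 gene without a symbol. These names did not last: without the Sham myeloid sums the first were Cd63 for Stat3 and Arpc1b for Il6st. The genes most like Socs3 were Rps10 (0.858), Selenoh (0.851) and Rpl36a (0.850), and Bcl3, with 279 UMIs in all, was not compared.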

How the data were processed

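Single nucleus RNA was measured in 6 libraries pooled from 11 rats (10x 5' chemistry, all on the same flow cell). The authors aligned reads to mRatBN7.2 with Cell Ranger 7.0.0, intronic reads included, and the deposited matrices hold raw counts of UMIs per gene and nucleus. Correction for ambient RNA and doublets is not part of these counts, and no doublet caller was run here. Nuclei with at least 500 UMIs, 250 to 5000 genes and at most 5% mitochondrial UMIs were kept. A nucleus entered a non-neuronal class when its marker list reached 3 UMIs, 2 genes, 0.3% of UMIs and 3 times any other non-neuronal list. Its pan-neuronal UMIs had to be under 1%. A neuron class required at least 1% pan-neuronal UMIs, 3 UMIs and 2 genes of its own list, and 3 times the other neuron list. Nuclei meeting an oligodendrocyte, astrocyte, myeloid or vascular list were kept out of neuron classes, but those meeting the OPC or ependymal list were not. The OPC list stood at 792 to 1205 CPM in glutamatergic and 1107 to 1674 CPM in GABAergic neurons. These thresholds were set after marker levels were seen, and member genes took no part. The members and lists were chosen with earlier results of these data known.

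Counts were summed per class and library (at least 20 nuclei in tests) and tested across all genes with edgeR 4.0.16 in R 4.3.3. The fit held all 6 libraries and used TMM factors, the quasi-likelihood test and Benjamini-Hochberg adjustment over all genes tested. Each SE is the absolute log2 fold change divided by the square root of the test's F statistic, and is not an output of edgeR. Alternatives were DESeq2 1.42.0, total-UMI scaling, no filter on low counts, other gates, single libraries left out and a block for the rat pool. Both hemispheres of a pool came from the same rats, and deviations of same-pool libraries correlated between -0.0196 and 0.125 across classes. The block is therefore given beside calls it changes. All 10 members are described, with the 3 genes most like each of Il6st, Stat3, Osmr and Socs3 by correlation. Other genes named are members of the pathway lists that were called, or are said to be picked after their values were seen. On simulated counts, 63.5% (vascular cells) to 93.5% (GABAergic neurons) of 200 genes changed 4-fold were recovered. Unchanged genes were called too, from 3 in vascular cells to 20 in glutamatergic neurons (beside 183 recovered). Oligodendrocytes gave 12 such calls beside 158 recovered. Shares used nuclei thinned to 1000 UMIs, exact 95% binomial intervals and a floor of 3 counts. Python 3.11.15, numpy 2.4.6, scipy 1.17.1 and pandas 2.3.3 were used.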

Additional observations from a re-analysis of the deposited data

Results flagged for a closer look

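The change from Sham to the ipsilateral libraries differed between oligodendrocytes and astrocytes for a pair of members, by the interaction test itself. For Jak2 the difference, oligodendrocytes minus astrocytes, was -1.70 on the log2 scale (-1.69901 unrounded), with astrocytes at 68.0 and 57.4 CPM in Sham and 184 and 157 CPM ipsilaterally. For Lifr it was 2.79 (2.78567 unrounded), with oligodendrocytes at 13.6 and 3.99 CPM in Sham and 31.6 and 57.5 CPM ipsilaterally. Both calls were lost when either Sham library or sMCAO ipsi was left out. Groups held 2 libraries, so single outlying libraries were not tested.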

How the results depend on the processing

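With no filter on low counts the members called numbered 20 against Sham in place of 9, and 17 against the contralateral hemisphere in place of 7. The share of all genes called is not given here for this or the following settings. The counts therefore describe the settings and are not a result about the members. Leaving out 1 library at a time gave 2 to 22 calls against Sham (2 without Sham L, 4 without Sham R, 22 without mMCAO ipsi) and 2 to 21 against the contralateral hemisphere (2 without mMCAO contra, 21 without mMCAO ipsi). The other settings gave 6 to 10 and 5 to 9, where 9 is the fit with the rat pool as a block, and the contralateral comparison with Sham gave 0 throughout. DESeq2 gave 6 calls in both, and no adjusted p for 2 members against Sham, 1 of them called by edgeR, and for 1 against the contralateral hemisphere. The class differences called numbered 1 under the stricter gate in place of 2, and 0 to 3 with 1 library left out (0 without Sham L, Sham R or sMCAO ipsi). Direction was compared only for pairs of member and class called in at least 1 setting. Among these it turned only in GABAergic neurons, for members that were not calls in the main fit. Lifr turned without mMCAO ipsi (with 1 library left out -0.0449 to 0.63 against Sham and -0.0356 to 0.65 against the contralateral hemisphere). Il6r turned against Sham without sMCAO ipsi (-0.67 to 0.20 with 1 library left out) and under the stricter gate (0.25). With the block, Stat3 of oligodendrocytes (2.12) and glutamatergic neurons (0.80) and Il6st of myeloid cells (-1.17) became calls and Jak1 of glutamatergic neurons (0.59) was lost, and no other call of a member changed. The causes were not tested. The alternatives for myeloid cells on the 4 MCAO libraries and for likeness without the Sham myeloid sums were chosen after seeing the data. Low UMI counts in Sham OPCs, astrocytes and vascular cells limit the sizes of change there, and pooled libraries give no spread between animals.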
